A study of Mus musculus with 12 samples.

Results

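The genes described are 40 markers of cell proliferation and mitosis, chosen by mouse gene symbol. The rule used no measured value, but the choice was made with earlier results of these data known. All 40 were found among the 55401 genes of an RNA sequencing table from mouse dermis, the connective tissue under the epidermis. They fall by role into 17 genes of the G1/S transition and DNA synthesis and 23 genes of mitosis. RNA was taken from wild-type (WT) mice and from Cthrc1-/- mice, which lack a secreted collagen triple helix repeat protein, on day 0 and day 7 of an experiment with paired, equal-sized skin wounds. All mice were of the C57BL/6 strain and 6 weeks old, and each of the 4 groups (both genotypes on both days) held 3 biological replicates. The labels do not state the sex of the mice, how the allele was made, whether animals were pooled, or how the day 0 skin was treated before it was taken.

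A cell that divides first licenses its replication origins with the MCM helicase, then copies its DNA with polymerases and the sliding clamp PCNA while ribonucleotide reductase and thymidylate synthase supply the nucleotides. Cyclin B and CDK1 then start mitosis, Polo-like and Aurora kinases build the spindle, and the checkpoint kinase BUB1 holds the anaphase activator CDC20 back until every kinetochore is attached. In quiescent cells the DREAM complex represses these genes through E2F sites and cell cycle homology regions (CHRs), and in cycling cells E2F, B-MYB and FOXM1 activate them, with NF-Y bound to CCAAT boxes. In skin such RNAs come mainly from growing hair follicles, from the basal epidermis and, after wounding, from proliferating epidermis and granulation tissue.

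Values are given as FPKM, fragments per kilobase of transcript scaled to the library's depth, which compares levels between genes per length. Changes are log2 ratios from edgeR's quasi-likelihood test on the deposited counts. Their standard errors (SE) were derived from that test, as the absolute log2 ratio divided by the square root of its F statistic. A gene is said to have risen or fallen where the Benjamini-Hochberg adjusted p over the 14313 tested genes was under 0.05. Every one of the 40 genes passed the filter for testing, a mean of at least 1 FPKM over the 12 libraries, and none had fewer than 161 counts in any library. Libraries held between 48329668 and 76938132 counts. The targeted gene, Cthrc1, had between 1813 and 11678 counts in each WT library and between 0 and 15 in each Cthrc1-/- library. All 8 fibroblast markers were present in every library, but so were those of basal keratinocytes, with Krt14 between 1162 and 3459 FPKM, so libraries labelled dermis also held RNA of keratinocytes. In such bulk samples, more dividing cells and more RNA per cell cannot be told apart.

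Promoter stretches are shown for members with matches to the CHR, the CCAAT box or E2F words in the bases before the start. RefSeq windows of 300 bases on GRCm38.p6 (250 before to 50 after the start) matched 32 of the 40 members, and Ccna2, Kif20a, Tpx2, Foxm1, Ccne2, Mcm4, Pole and Aurkb had no entry. Both strands were searched for the CHR (TTTGAA or TTCGAA), for CCAAT, and for 4 E2F words, which are TTTCCCGC or TTTCGCGC and the forms TTTGCCGC or TTTGGCGC. A gene with several windows counted if any of them held the motif. Capitals mark these matches on either strand, and each stretch reads 5′ to 3′ on the gene's strand. The first 4 genes act in mitosis and chromosome condensation or mark cycling cells, and the last 2 are helicase subunits. Their positions are chr10:69352939-69353052 for Cdk1, chr4:118437353-118437408 for Cdc20, chr11:99024190-99024429 for Top2a and chr7:135716380-135716569 for Mki67, all on the minus strand, with chr1:128359706-128359825 for Mcm6 (minus) and chr8:75109349-75109508 for Mcm5 (plus).
Cdk1: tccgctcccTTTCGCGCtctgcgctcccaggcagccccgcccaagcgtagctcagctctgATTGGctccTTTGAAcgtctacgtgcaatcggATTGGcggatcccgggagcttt
Cdc20: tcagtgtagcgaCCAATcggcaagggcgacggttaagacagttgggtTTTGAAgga
Top2a: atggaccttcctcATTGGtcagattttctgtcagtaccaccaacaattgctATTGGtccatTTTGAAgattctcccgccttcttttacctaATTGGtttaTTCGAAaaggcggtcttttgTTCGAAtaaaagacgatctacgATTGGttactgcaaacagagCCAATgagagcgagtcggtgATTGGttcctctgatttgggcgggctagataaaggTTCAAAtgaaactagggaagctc
Mki67: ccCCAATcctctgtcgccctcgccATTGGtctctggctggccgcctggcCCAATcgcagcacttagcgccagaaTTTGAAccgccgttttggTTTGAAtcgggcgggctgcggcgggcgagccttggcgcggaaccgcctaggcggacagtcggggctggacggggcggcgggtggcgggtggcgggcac
Mcm6: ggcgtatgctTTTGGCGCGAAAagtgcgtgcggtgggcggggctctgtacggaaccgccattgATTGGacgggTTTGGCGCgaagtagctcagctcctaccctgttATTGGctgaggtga
Mcm5: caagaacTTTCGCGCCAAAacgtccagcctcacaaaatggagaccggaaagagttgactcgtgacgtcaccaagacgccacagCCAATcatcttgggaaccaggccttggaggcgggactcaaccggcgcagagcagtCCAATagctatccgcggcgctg

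The promoter of Top2a, the DNA topoisomerase that untangles sister chromatids, held 6 CCAAT boxes and 4 CHRs in its window, and that of Cdk1 held 3 CCAAT boxes, 2 CHRs and 1 E2F word. Mcm6 and Mcm5 held E2F words and CCAAT boxes but no CHR, and in both genes a pair of E2F words on opposite strands overlaps, which gives the longer runs of capitals. Over the windows, 15 of 19 mitotic genes (78.9%) held a CHR and 2 of 13 G1/S and DNA synthesis genes (15.4%) did, against 21.7% of 27025 genes with a window. A CCAAT box was found in 17 of 19 (89.5%) and 8 of 13 (61.5%), against 41.1% of all genes, and an E2F word in 3 of 19 (15.8%) and 5 of 13 (38.5%), against 2.60%. All 17 members with a CHR also held a CCAAT box (53.1% of 32), a pairing found in 8.61% of all genes. With the 50 bases after the start left out, the share of mitotic genes with a CHR was 47.4% and that of all genes 19.6%. A match is a stretch of letters, and these data do not measure binding.

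By mean FPKM the 40 genes formed one order of groups, and the share of all genes with this order was not computed. FPKM do not carry edgeR's scaling between libraries, whose factors were 0.892 to 0.912 in WT day 0 and 0.939 to 1.12 on day 7. By FPKM, WT day 0 therefore stood lower against day 7 than in edgeR's fit. WT day 0 dermis had the lowest mean FPKM for 40 of 40 genes, the Cthrc1-/- day 0 mean lay between it and both day 7 means for 39 (the exception was Pcna), and the day 7 means of the genotypes were close, with WT above Cthrc1-/- for 21 genes and below for 19. The median over the 40 genes, each set relative to its WT day 0 mean, was 1.15, 0.989 and 0.856 in the WT day 0 libraries and 1.88, 1.65 and 3.13 in the Cthrc1-/- day 0 libraries. It was 2.48, 3.298 and 3.45 on day 7 in WT and 3.06, 2.67 and 3.24 in Cthrc1-/-. In WT the mean FPKM on day 7 was a median of 3.07 times that on day 0 (range 1.17 to 10.1), and the day 7 means of Cthrc1-/- were a median of 0.996 times those of WT (0.612 to 1.11).

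**Figure D1:**
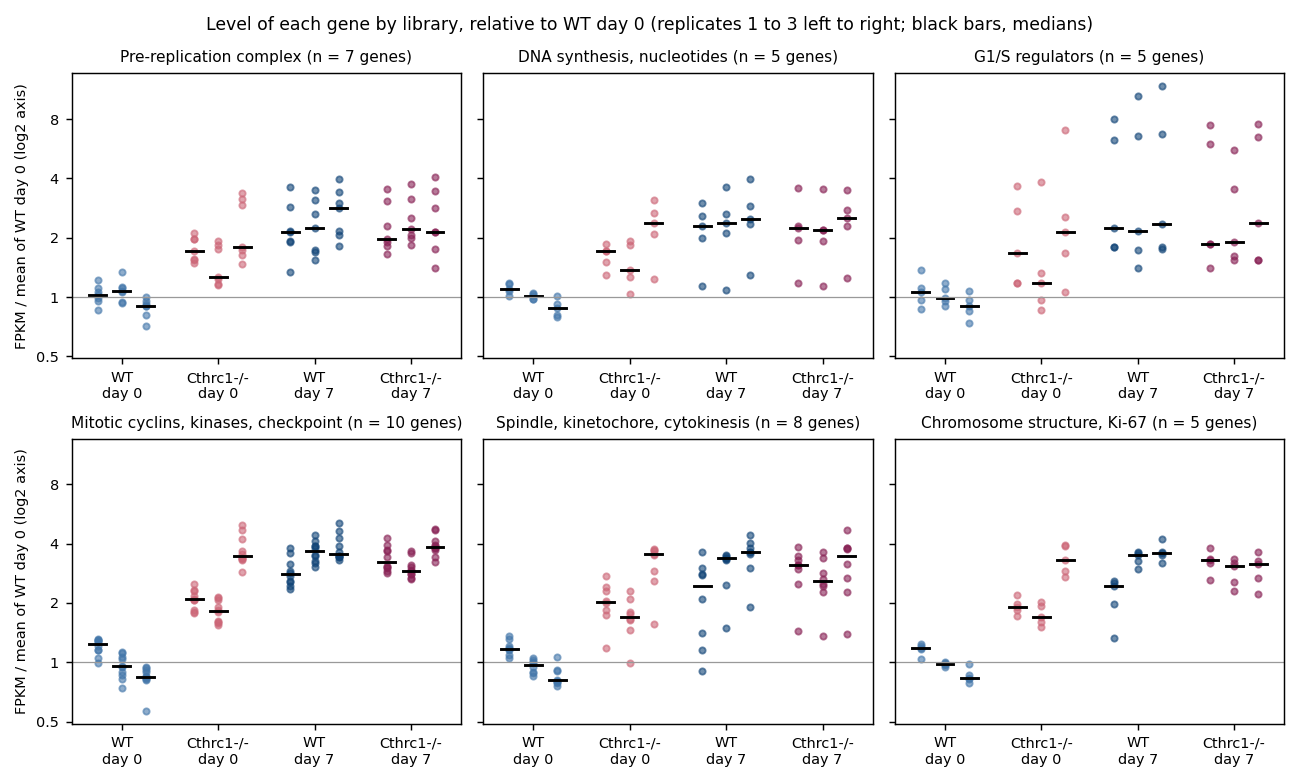
FPKM of each gene divided by its WT day 0 mean (vertical, log2 axis) in the 12 libraries, in 6 panels by role; points are genes, black bars are medians, and replicates 1 to 3 run left to right within a group. WT day 0 lies lowest, the third Cthrc1-/- day 0 library lies above the other two of its group, and both day 7 groups lie at like levels, with Foxm1 and Mybl2 far above the other G1/S regulators.

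Between day 0 and day 7 in WT, 35 of the 40 genes rose and 0 fell, where 6.04% of all 14313 tested genes rose and 7.10% fell. The median log2 change was 1.42, against -0.00185 for all genes. In 39 of 40 genes the 3 day 7 libraries all lay above the 3 day 0 libraries in FPKM, as they did for 29.8% of all genes, and the exception was Kif23. On day 0, 26 of the 40 genes were higher in Cthrc1-/- than in WT and 0 were lower, where 3.51% of all genes were higher and 2.26% lower. The median log2 difference was 1.06, against -0.05 for all genes, and 35 genes had groups that did not overlap, against 21.5%. The 14 genes that did not pass on day 0 were Mcm3, Mcm4, Mcm6, Cdc6, Pcna, Tyms, Ccne1, Ccne2, E2f1, Foxm1, Ccnb1, Cenpf, Kif23 and Mki67, and the 5 that did not pass in WT were Pcna, Kif23, Ccne2, Cdc6 and E2f1. The WT day 0 libraries serve as the baseline of both comparisons.

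On day 7 edgeR called 0 of 40 genes between the genotypes (adjusted p 0.907 to 1), where 0.0210% of all genes were called. At an unadjusted p under 0.05 there was 1, Mcm3, against 5.46% of all genes, and DESeq2 and limma also called 0. The median log2 difference was -0.08 (0.0094 with limma on log2(FPKM + 0.1)), and the log2 differences ranged from -0.77 to 0.08 with SEs of 0.11 to 0.41. The 3 libraries of each genotype were apart in 1 gene, Foxm1, which was lower in Cthrc1-/-, a direction in which 2.67% of all genes were apart. Between days in Cthrc1-/-, edgeR called 0 of 40 (adjusted p 0.0930 to 0.983), where 1.46% of all genes were called. An unadjusted p under 0.05 was reached by 8 of 40, against 18.1% of all genes. DESeq2 called 2, Kif20a and Pole, and limma called Kif20a. The median log2 change was 0.23, and 9 of 40 genes had day 7 libraries all above day 0, against 21.5% of all genes. Leaving out Cthrc1-/- day 0 replicate 3 gave 5 calls here (Aurkb, Kif20a, Mcm2, Ncaph and Pole) and a median of 0.42. The counts over all genes with DESeq2 and limma, and their range with 1 library left out, are given under the processing below.

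The estimated change between days was lower in Cthrc1-/- than in WT for 40 of 40 genes, with a median interaction of -1.12 on the log2 scale against 0.02 for all genes. This interaction is the day 7 difference between genotypes (median -0.08) minus the day 0 difference (median 1.06). It rests on the same WT day 0 libraries and is not separate from the day 0 result. At an adjusted p under 0.05 edgeR called 0 of the 40 (0.133 to 0.751), where 0.0140% of all genes were called, and limma called 0. An unadjusted p under 0.05 was reached by 33 of 40, against 15.1% of all genes, and DESeq2 called 24. Without Cthrc1-/- day 0 replicate 1 edgeR called 5 (Cenpa, Mcm2, Mybl2, Ncapd2 and Rrm2), and without replicate 3 it called Mybl2. Over all genes the interaction counts also rose with DESeq2 and in some fits without 1 library, as given under the processing below.

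**Figure D2:**
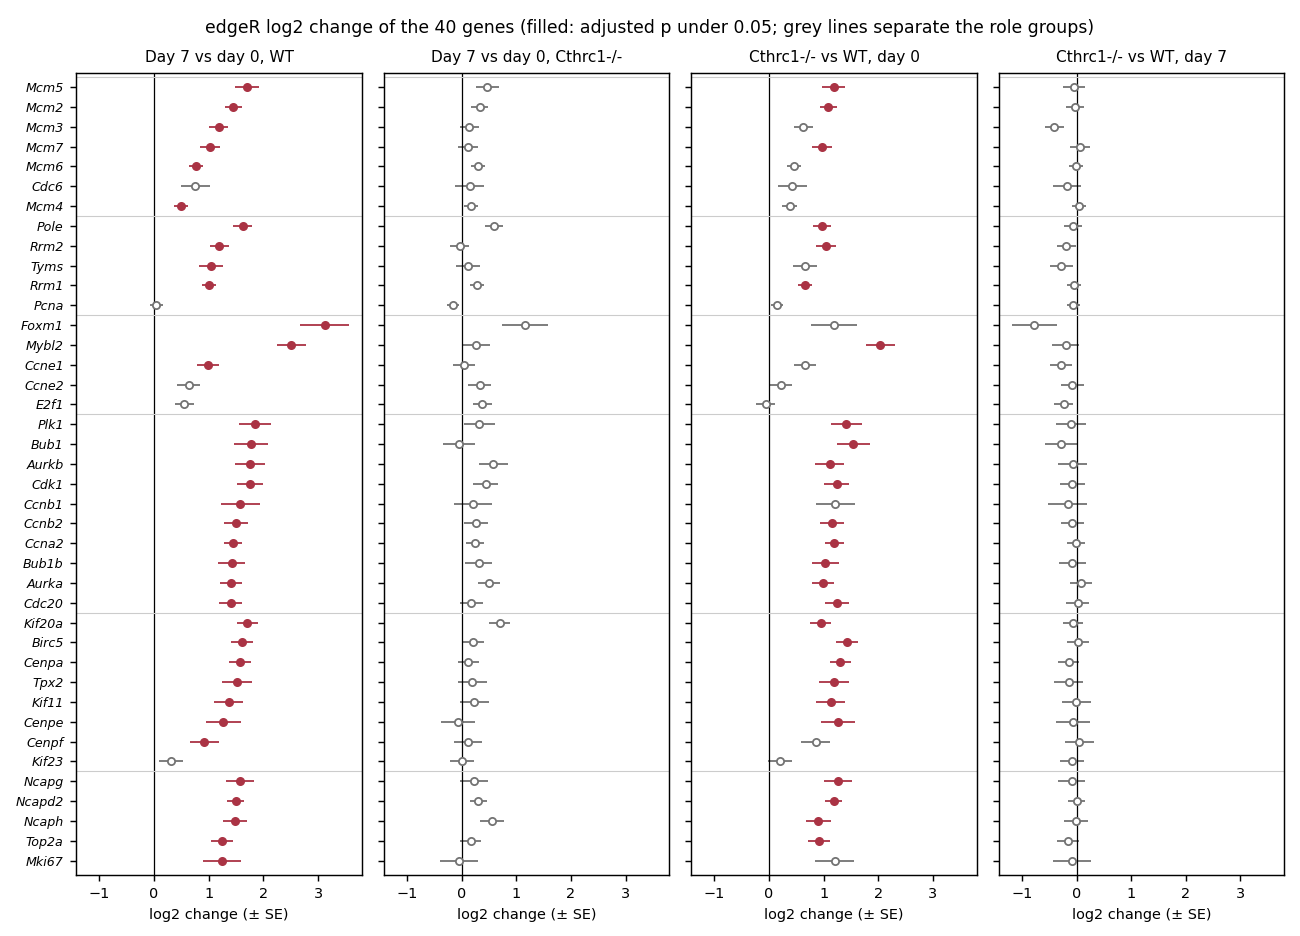
edgeR log2 change with its SE (horizontal) for each of the 40 genes (rows, grouped by role) in 4 comparisons; filled points passed an adjusted p of 0.05. Most points lie right of 0 and are filled for WT between days (35) and for the genotypes on day 0 (26), and none is filled in the other 2 panels.

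The day 0 calls depended on the tool and on the libraries in the fit, while the size of the difference moved less. DESeq2 called 35 of the 40 genes (2787 of all 14313), and limma on log2(FPKM + 1) called 18 (601 of all). When only the 6 day 0 libraries were fitted, 0 of 40 genes (lowest adjusted p 0.0792) and 19 of all genes were called. In that fit 35 of the 40 had an unadjusted p under 0.05, and the median over the 40 was 1.14. The count among the 40 was also 0 without WT day 0 replicate 2 or without replicate 3 (18 of all genes in each fit). It was 5 without WT day 0 replicate 1 (Cdk1, Cenpa, Mcm2, Mybl2 and Ncapd2), with 48 of all genes. It was 12 without Cthrc1-/- day 0 replicate 3 (238 of all genes), 14 without Cthrc1-/- day 7 replicate 1 and 17 without WT day 7 replicate 2. Fits with 1 library left out called 18 to 2146 of all genes. Over the fits with 1 library left out, the median log2 difference lay between 0.80, without Cthrc1-/- day 0 replicate 3, and 1.20.

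In the origin licensing group, which holds the MCM2 to MCM7 helicase subunits and the helicase loader Cdc6, 6 of 7 genes rose between days in WT and 3 of 7 were higher in Cthrc1-/- on day 0. Mcm6 (ENSMUSG00000026355, chr1:128331590-128359664, minus strand) measured 9.92, 11.1 and 9.03 FPKM in WT day 0 and 15.3, 12.6 and 16.4 FPKM in Cthrc1-/- day 0. Its day 7 values were 19.1, 17.4 and 21.7 FPKM in WT and 19.1, 20.6 and 21.4 FPKM in Cthrc1-/-. Every Cthrc1-/- day 0 library lay between the WT day 0 and the day 7 libraries, and the day 7 genotypes overlapped. Mcm6 rose in WT by 0.77 ± 0.13 (log2 ± SE, edgeR adjusted p 0.00695), and its day 0 difference of 0.45 ± 0.13 did not pass (adjusted p 0.0629).

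Mcm7 (ENSMUSG00000029730, chr5:138164583-138172422, minus strand) measured 7.26, 8.62 and 7.06 FPKM in WT and 13.2, 13.4 and 22.4 FPKM in Cthrc1-/- on day 0, and 14.6, 17.2 and 21.7 FPKM in WT and 17.6, 19.3 and 21.6 FPKM in Cthrc1-/- on day 7. Replicate 3 of Cthrc1-/- day 0 was the highest of all 12 libraries, while replicates 1 and 2 lay below every day 7 library. The log2 difference on day 0 was 0.97 ± 0.18 (edgeR adjusted p 0.0270) and the rise in WT was 1.02 ± 0.18 (adjusted p 0.00875). Mcm7 overlaps Cops6 and Ap4m1 on the opposite strand, and whether the counting used strand is not given in the sources used here. Of the others, Mcm5 changed most (WT 1.70 ± 0.22, day 0 1.18 ± 0.21) followed by Mcm2 (1.45 ± 0.16 and 1.09 ± 0.16). Mcm3 and Mcm4 rose in WT, by 1.18 ± 0.17 and 0.50 ± 0.13, and Cdc6 passed in no comparison (WT adjusted p 0.0817).

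Among the genes of DNA synthesis and nucleotide supply, 4 of 5 rose in WT and 3 of 5 were higher in Cthrc1-/- on day 0. Pcna (ENSMUSG00000027342, chr2:132249162-132253314, minus strand), the sliding clamp of DNA polymerases, was the most abundant member per length, and its log2 change between days in WT was the nearest to 0 of the 40. Its values were 48.2, 46.4 and 48.5 FPKM in WT and 61.9, 49.5 and 58.9 FPKM in Cthrc1-/- on day 0, and 54.2, 51.9 and 61.6 FPKM in WT and 55.9, 54.1 and 59.6 FPKM in Cthrc1-/- on day 7. WT day 0 was lowest in FPKM in every library, but on edgeR's scaling the log2 change in WT was 0.04 ± 0.11 (adjusted p 0.840) and the day 0 difference 0.14 ± 0.11 (adjusted p 0.435). The pseudogene Pcna-ps2 held up to 274 counts in a library, so reads of near-identical copies may be divided between them.

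Rrm2 (ENSMUSG00000020649, chr12:24708241-24714146, plus strand), the small subunit of ribonucleotide reductase, passed in both comparisons. It measured 8.83, 8.58 and 7.23 FPKM in WT day 0 and 14.04, 15.7 and 25.5 FPKM in Cthrc1-/- day 0, and 18.9, 21.6 and 23.9 FPKM and 18.8, 18.03 and 22.7 FPKM on day 7 in WT and Cthrc1-/-. The third Cthrc1-/- day 0 library was the highest of all 12. Rrm2 was higher on day 0 by 1.04 ± 0.18 (log2 ± SE, edgeR adjusted p 0.0231) and rose in WT by 1.19 ± 0.18 (adjusted p 0.00605). Rrm1, its large subunit, and Pole, the catalytic subunit of DNA polymerase epsilon, also passed in both comparisons, with 0.997 ± 0.13 and 1.62 ± 0.17 in WT. Tyms, thymidylate synthase, rose in WT (1.05 ± 0.22) and its day 0 difference of 0.65 ± 0.22 had an adjusted p of 0.0916.

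The group of G1/S regulators, in which Foxm1 was placed, held both the largest and some of the smallest changes. Mybl2 (ENSMUSG00000017861, chr2:163054687-163084688, plus strand), which encodes B-MYB, measured 0.850, 0.753 and 0.689 FPKM in WT day 0 and 2.096, 2.93 and 5.38 FPKM in Cthrc1-/- day 0. On day 7 it measured 4.78, 5.03 and 5.16 FPKM in WT and 4.56, 4.24 and 4.94 FPKM in Cthrc1-/-. Each Cthrc1-/- day 0 library was above every WT day 0 library, and the third was above all others. The day 0 difference of 2.04 ± 0.26 (edgeR adjusted p 0.00980) was the largest of the 40, and the WT rise was 2.51 ± 0.27 (adjusted p 0.00236).

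Foxm1 (ENSMUSG00000001517, chr6:128362967-128376146, plus strand), a transcription factor of G2 and M phase genes, was counted here with the G1/S regulators and not with the mitotic genes. It had the largest rise in WT, 3.12 ± 0.44 on the log2 scale (edgeR adjusted p 0.00543). Its levels were 0.952, 0.626 and 0.511 FPKM in WT day 0 and 5.57, 7.33 and 8.18 FPKM in WT day 7. In Cthrc1-/- they were 2.53, 0.822 and 1.78 FPKM on day 0 and 5.22, 2.45 and 5.23 FPKM on day 7. Unlike most members, Foxm1 on day 0 overlapped between the genotypes (log2 1.19 ± 0.42, adjusted p 0.103), its highest Cthrc1-/- library was replicate 1 and not replicate 3, and on day 7 all Cthrc1-/- libraries were below all WT libraries (-0.77 ± 0.41, adjusted p 0.942).

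E2f1 (ENSMUSG00000027490, chr2:154559407-154569892, minus strand), the activator that opens S phase, was nearly level on day 0, with 4.49, 4.43 and 4.98 FPKM in WT and 5.44, 3.995 and 4.94 FPKM in Cthrc1-/-. On day 7 it stood at 8.32, 6.53 and 8.28 FPKM and 6.51, 7.16 and 7.14 FPKM in WT and Cthrc1-/-. Its day 0 difference of -0.06 ± 0.17 was the single negative one of the 40, and it was positive with library size scaling. The WT change of 0.55 ± 0.17 had an adjusted p of 0.0586, and 8 of 23 alternative fits called it. Ccne1 (ENSMUSG00000002068, chr7:38097984-38107534, minus strand), the cyclin of the G1/S transition, measured 2.400, 2.49 and 1.93 FPKM in WT and 3.81, 3.02 and 4.85 FPKM in Cthrc1-/- on day 0, and 5.11, 4.91 and 5.32 FPKM in WT and 4.24, 3.68 and 5.38 FPKM in Cthrc1-/- on day 7. It rose in WT by 0.98 ± 0.20 (edgeR adjusted p 0.0141; 0.0617 without WT day 0 replicate 3), and its day 0 difference of 0.66 ± 0.20 did not pass (adjusted p 0.0734) although the groups were apart. Its paralog Ccne2, which overlaps Ints8 on the opposite strand, passed in neither comparison.

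The mitotic cyclins, kinases and checkpoint genes were called in nearly every case. All 10 rose in WT, with log2 changes between 1.40 and 1.84, and 9 of 10 were higher in Cthrc1-/- on day 0 (0.99 to 1.54 over all 10). The remaining gene, Ccnb1, had a day 0 difference of 1.21 ± 0.36 (edgeR adjusted p 0.0719), and its pseudogene Ccnb1-ps held up to 98 counts. Cdc20 (ENSMUSG00000006398, chr4:118432901-118437352, minus strand), the activator of the anaphase-promoting complex, measured 12.3, 11.1 and 8.64 FPKM in WT and 24.98, 19.7 and 37.9 FPKM in Cthrc1-/- on day 0, and 27.5, 32.6 and 36.8 FPKM in WT and 30.4, 30.9 and 41.9 FPKM in Cthrc1-/- on day 7. Its WT rise was 1.40 ± 0.22 (adjusted p 0.00631) and its day 0 difference 1.24 ± 0.21 (adjusted p 0.0231). Cdc20 overlaps Elovl1 on the opposite strand. Of the genes not printed by library, Cdk1, the kinase of mitotic entry, rose in WT by 1.75 ± 0.23, its cyclin Ccna2 by 1.44 ± 0.17, the Aurora kinases Aurka and Aurkb by 1.41 ± 0.20 and 1.76 ± 0.28, and the checkpoint gene Bub1b by 1.42 ± 0.25. Ccna2 overlaps Exosc9 on the opposite strand.

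Ccnb2 (ENSMUSG00000032218, chr9:70407692-70421547, minus strand), a mitotic cyclin, measured 10.4, 8.19 and 7.33 FPKM in WT day 0 and 18.1, 15.5 and 29.3 FPKM in Cthrc1-/- day 0. On day 7 the values were 23.8, 28.4 and 31.4 FPKM in WT and 26.5, 22.95 and 33.7 FPKM in Cthrc1-/-. The groups were apart on day 0 and overlapped on day 7, with log2 differences of 1.15 ± 0.22 (edgeR adjusted p 0.0276) and -0.08 ± 0.21 (adjusted p 0.998), and the WT rise was 1.49 ± 0.22 (adjusted p 0.00570). A transcribed pseudogene, Ccnb2-ps, held up to 143 counts.

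Plk1 (ENSMUSG00000030867, chr7:122159439-122169873, plus strand), the Polo-like kinase of mitotic entry and spindle assembly, measured 4.81, 3.19 and 3.12 FPKM in WT and 7.68, 7.65 and 17.3 FPKM in Cthrc1-/- on day 0, and 13.3, 16.4 and 15.9 FPKM in WT and 13.7, 13.6 and 17.4 FPKM in Cthrc1-/- on day 7. Replicate 3 of Cthrc1-/- day 0 lay among the day 7 libraries, and replicates 1 and 2 lay below them. Plk1 rose in WT by 1.84 ± 0.29 (edgeR adjusted p 0.00631), the largest change of the mitotic genes, and was higher on day 0 by 1.42 ± 0.28 (adjusted p 0.0317; 0.0549 without Cthrc1-/- day 7 replicate 1 and 0.0713 to 0.119 without any one WT day 0 library). Bub1 (ENSMUSG00000027379, chr2:127801122-127831865, minus strand), the checkpoint kinase, had the largest day 0 difference of the mitotic genes, 1.54 ± 0.30 (adjusted p 0.0307; 0.0545 without Cthrc1-/- day 0 replicate 3 and 0.0860 to 0.115 without any one WT day 0 library). Its values were 1.14, 0.948 and 0.880 FPKM in WT and 2.47, 2.105 and 4.91 FPKM in Cthrc1-/- on day 0, and 2.86, 3.84 and 5.04 FPKM in WT and 4.25, 2.64 and 3.19 FPKM in Cthrc1-/- on day 7. Bub1 rose in WT by 1.77 ± 0.30 (adjusted p 0.00776), and replicate 3 of Cthrc1-/- day 0 was above every day 7 library but one.

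Among the 8 genes of the spindle, the kinetochore and cytokinesis, 7 rose in WT and 6 were higher in Cthrc1-/- on day 0. Birc5 (ENSMUSG00000017716, chr11:117849251-117855743, plus strand), survivin of the chromosomal passenger complex, measured 3.81, 3.01 and 3.74 FPKM in WT day 0 and 9.62, 8.097 and 13.1 FPKM in Cthrc1-/- day 0. On day 7 it measured 9.86, 11.8 and 15.5 FPKM in WT and 10.97, 11.9 and 16.5 FPKM in Cthrc1-/-. Every Cthrc1-/- day 0 library was above all WT day 0 libraries, with a log2 difference of 1.43 ± 0.20 (edgeR adjusted p 0.0140) and a WT rise of 1.61 ± 0.20 (adjusted p 0.00380).

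Tpx2 (ENSMUSG00000027469, chr2:152847964-152895321, plus strand), which activates Aurora A on the spindle, measured 5.13, 3.32 and 2.86 FPKM in WT and 7.698, 6.599 and 13.9 FPKM in Cthrc1-/- on day 0, and 10.5, 13.1 and 13.7 FPKM in WT and 11.2, 10.04 and 14.2 FPKM in Cthrc1-/- on day 7. The groups were apart on day 0, by 1.19 ± 0.27 (edgeR adjusted p 0.0400), and the WT rise was 1.52 ± 0.27 (adjusted p 0.00931). The day 0 call of Tpx2 was lost without any single day 0 library other than Cthrc1-/- replicate 1, and also without WT day 7 replicate 2 or 3 or Cthrc1-/- day 7 replicate 1 or 2. Kif23, a kinesin of the central spindle, stood apart from the group with log2 values of 0.30 ± 0.22 in WT and 0.20 ± 0.22 on day 0, neither of which passed. Kif20a, another kinesin of cytokinesis, rose in WT by 1.71 ± 0.20, the centromeric histone Cenpa by 1.57 ± 0.20 and the spindle motor Kif11 by 1.37 ± 0.27. Kif20a overlaps Cdc23 on the opposite strand.

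All 5 genes of chromosome structure rose in WT, and 4 were higher in Cthrc1-/- on day 0. Top2a (ENSMUSG00000020914, chr11:98992943-99024189, minus strand) measured 8.13, 6.22 and 5.39 FPKM in WT and 12.1, 10.5 and 17.7 FPKM in Cthrc1-/- on day 0, and 13.02, 19.6 and 21.01 FPKM in WT and 17.3, 15.1 and 17.7 FPKM in Cthrc1-/- on day 7. Its day 0 difference was 0.91 ± 0.20 (edgeR adjusted p 0.0367) and its WT rise 1.24 ± 0.20 (adjusted p 0.00657). The day 0 call of Top2a was lost without Cthrc1-/- day 0 replicate 2 or 3, any WT day 0 library, WT day 7 replicate 2, or Cthrc1-/- day 7 replicate 1 or 2. The condensin subunits Ncapd2, Ncapg and Ncaph passed in both comparisons, with WT rises of 1.49 ± 0.16, 1.57 ± 0.26 and 1.48 ± 0.23, and Ncapg overlaps Lcorl on the opposite strand.

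Mki67 (ENSMUSG00000031004, chr7:135689784-135716361, minus strand), which encodes the proliferation antigen Ki-67, passed in WT by a small margin. It measured 8.38, 7.07 and 5.92 FPKM in WT day 0 and 9.42, 23.3 and 25.97 FPKM in WT day 7, and 14.02, 12.1 and 27.6 FPKM and 22.7, 18.3 and 15.9 FPKM in Cthrc1-/- on day 0 and day 7. The first WT day 7 library was close to WT day 0, and the other two were not. Mki67 rose in WT by 1.24 ± 0.35 (edgeR adjusted p 0.0446), a call that 13 of 23 alternative fits did not keep, among them those without any one WT day 0 library, WT day 7 replicate 2 or 3, Cthrc1-/- day 0 replicate 2 or any one Cthrc1-/- day 7 library. Its day 0 difference was 1.20 ± 0.35 (adjusted p 0.0693), and 3 of 23 alternative fits called it.

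Libraries of a group differed in the same direction for most of the 40 genes. Cthrc1-/- day 0 replicate 3 was the highest of its group for 35 of 40 genes, and replicate 2 the lowest for 36. WT day 7 replicate 1 was the lowest of its group for 30 genes, and Cthrc1-/- day 7 replicate 2 for 24. In 30 of 40 genes Cthrc1-/- day 0 replicate 3 was at or above the lowest WT day 7 library. Replicate 1 of the same group, though lower, was above every WT day 0 library for 39 genes and replicate 2 for 35. The shares of all genes with these orders of single libraries were not computed, so the counts describe the 40 genes only. Even with all 3 libraries of that group required to lie above WT day 0, the share of all genes was 21.5%.

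Markers of other cell types also differed between libraries. The 17 markers of the hair matrix and inner root sheath, the growing lower part of the hair follicle, summed to 45.96, 52.2 and 53.4 FPKM in WT day 0 and 307, 5562 and 13625 FPKM in Cthrc1-/- day 0. On day 7 they summed to 1813, 4470 and 4180 FPKM in WT and 4089, 603 and 5981 FPKM in Cthrc1-/-. Of the 17, edgeR called 14 higher in Cthrc1-/- on day 0 and 13 higher on day 7 in WT, and in WT day 0 the inner root sheath keratin Krt71 was between 0.307 and 1.06 FPKM, with Krt25 and Krt73 at 0 in replicate 1. Within Cthrc1-/- day 0 the order of the hair sums was not that of the members: replicate 1 had the lowest hair sum (307 FPKM) and a member median of 1.88 times WT day 0, and replicate 2 had a higher hair sum (5562 FPKM) and a lower member median (1.65). Replicate 3 was highest in both (13625 FPKM and 3.13). These sums rested largely on keratins, such as Krt71 with 66.1, 1526 and 3950 FPKM in replicates 1 to 3. The genes of the list that are not keratins had the same order. Tchh differed widely (22.1, 541 and 1113 FPKM), as did Dlx3 (11.4, 79.4 and 211 FPKM) and Foxn1 (1.09, 10.7 and 25.2 FPKM). Shh (1.74, 2.64 and 7.51 FPKM) and Gata3 (27.6, 35.8 and 56.8 FPKM) differed least. In Cthrc1-/- day 7, replicate 2 was lowest in both the hair sum (603 FPKM) and the member median (2.67, against 3.06 and 3.24). In WT day 7, replicate 1 was lowest in both (1813 FPKM and 2.48, against medians of 3.298 and 3.45 in replicates 2 and 3). The part of hair follicle content in the members' differences was not tested.

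The 8 fibroblast markers summed to between 4910 and 6527 FPKM in WT day 0 and to 2482, 1355 and 361 FPKM in Cthrc1-/- day 0, lowest in the third library, in which the members were highest. EdgeR called 1 of the 8 lower in Cthrc1-/- on day 0. The sums rested largely on the collagens Col1a1, Col1a2 and Col3a1. Thy1 in Cthrc1-/- day 0 replicate 1 (83.0 FPKM) was above every WT day 0 library (67.5 to 78.5 FPKM). On day 7 they lay between 3609 and 5355 FPKM in WT and between 2283 and 3523 FPKM in Cthrc1-/-. The 6 neutrophil markers summed to 4878, 752 and 42.03 FPKM in WT day 7, highest in the first library, in which most members were lowest. In WT day 0 they summed to between 8.24 and 12.8 FPKM. The defining marker Ly6g was 19.6 FPKM in that first WT day 7 library and at most 0.101 FPKM in every other library. In WT day 7 replicate 2 the sum was mostly S100a8 and S100a9 (250 and 483 FPKM). The 7 basal keratinocyte markers were also lowest in that first WT day 7 library, at 2214 FPKM, against 4823 and 6683 FPKM in the other two. Of the other marker lists, edgeR called 2 of 4 wound keratinocyte markers and 2 of 5 melanocyte markers higher in Cthrc1-/- on day 0, and 2 and 4 higher on day 7 in WT, with 3 of 7 basal keratinocyte and all 3 tested adipocyte markers lower there. The part of these cell types in the members' values was not tested.

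**Figure D3:**
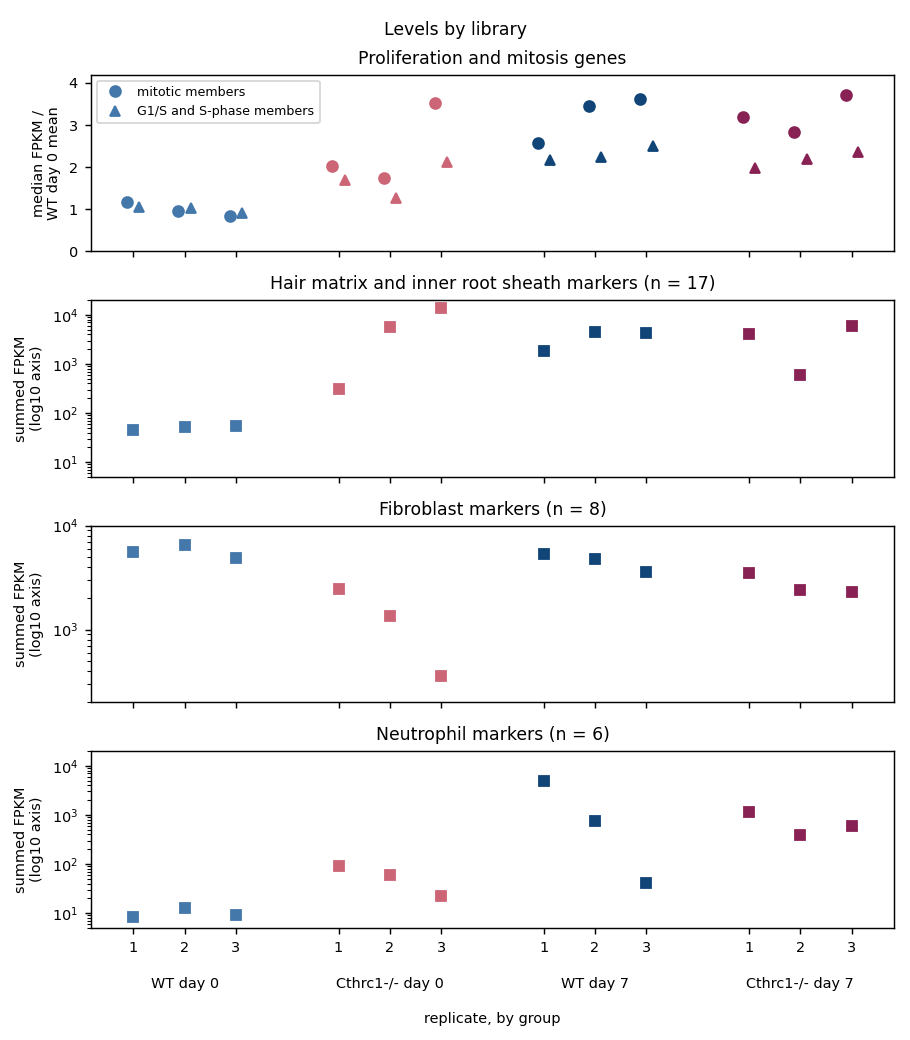
Top, median over the 23 mitotic (circles) and the 17 G1/S and DNA synthesis genes (triangles) of FPKM divided by the WT day 0 mean, by library; below, summed FPKM of hair, fibroblast and neutrophil markers (log10 axes). The third Cthrc1-/- day 0 library has the highest member median of its group, the highest hair sum (13625 FPKM) and the lowest fibroblast sum (361 FPKM), and the first WT day 7 library has the highest neutrophil sum (4878 FPKM).

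In the first WT day 7 library 3 of the 4 longest members, Mki67, Cenpe and Cenpf, were the lowest of the 40 relative to the other two libraries. For the 4 members with an annotated transcript over 7000 bases (Mki67, Cenpf, Cenpe and Pole), log2(FPKM + 0.1) in that library minus the mean of replicates 2 and 3 had a median of -1.21 (range -1.38 to -0.32). The 13 members under 3000 bases had a median of -0.33 (-0.49 to 0.18), and for all tested protein-coding genes the medians were -0.32 over 7000 bases and -0.17 under 3000. Cenpf, a kinetochore protein, measured 1.13, 2.42 and 2.96 FPKM in WT day 7, and Cenpe, a kinetochore kinesin, 1.56, 3.74 and 3.99 FPKM. Both rose in WT by edgeR (0.92 ± 0.27, adjusted p 0.0467, and 1.27 ± 0.32, adjusted p 0.0294), calls that 15 and 7 of 22 alternative fits did not keep. The fourth, Pole, was at -0.32, above shorter genes such as Kif23 (-0.87), Kif11 (-0.70) and Ncapg (-0.66). Over the 40 genes, which share these libraries, Spearman's rho with transcript length was -0.27 in that library, and over the 12 libraries, each set against the other two of its group, it ranged from -0.37 in Cthrc1-/- day 7 replicate 3 to 0.46 in Cthrc1-/- day 7 replicate 1. In that replicate 3, all tested protein-coding genes over 7000 bases had a median of -0.17 and those under 3000 bases 0.09. A cause of these length differences was not tested.

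**Figure D4:**
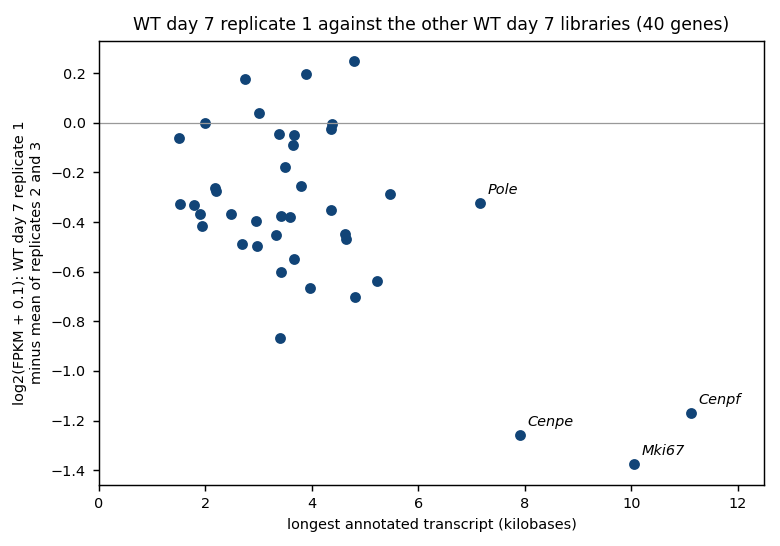
For each of the 40 genes, log2(FPKM + 0.1) of WT day 7 replicate 1 minus the mean of replicates 2 and 3 (vertical) against the longest annotated transcript in kilobases (horizontal); the line marks no difference. Mki67, Cenpe and Cenpf, all among the 4 longest, lie lowest, between -1.38 and -1.17, while Pole lies among the shorter genes.

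Other genes of the same pathways, from lists of genes that are not among the 40, are given by count beside the same background. Of 48 tested further genes of origin firing, DNA synthesis, repair and chromatin assembly, 28 rose between days in WT and 18 were higher in Cthrc1-/- on day 0. Of 63 tested further mitotic genes, 45 rose and 2 fell in WT, and 28 were higher in Cthrc1-/- on day 0. Of all tested genes, 6.04% rose and 7.10% fell in WT, and 3.51% were higher in Cthrc1-/- on day 0. The day 0 counts depended on the tool, with 28 S-phase and 46 mitotic genes called by DESeq2 and 11 and 13 by limma. So did the background, since over all 14313 tested genes DESeq2 called 2787 on day 0, edgeR 827 and limma 601. Between days in WT DESeq2 called 34 S-phase and 53 mitotic genes, and limma 32 and 47. On day 7 edgeR, DESeq2 and limma called 0 of either list between genotypes, with 0 at an unadjusted p under 0.05, against 5.46% of all genes. Uhrf1, which guides maintenance DNA methylation at replication forks, measured 3.41, 3.703 and 2.88 FPKM in WT and 9.101, 7.501 and 16.3 FPKM in Cthrc1-/- on day 0, and 12.9, 16.6 and 17.8 FPKM in WT and 16.2, 15.1 and 19.1 FPKM in Cthrc1-/- on day 7. It rose in WT by 2.04 ± 0.23 and was higher on day 0 by 1.58 ± 0.23 (edgeR adjusted p 0.00272 and 0.0140). Tk1, thymidine kinase, did likewise (1.95 ± 0.31 and 1.505 ± 0.31). In the mitotic list the largest WT rises were Cdc25c, the phosphatase that activates CDK1 (2.01 ± 0.37), and Kif2c, a microtubule-depolymerising kinesin (1.93 ± 0.27), and the largest day 0 differences were Cdca5 (1.63 ± 0.33) and Spc24 (1.40 ± 0.30).

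The 2 mitotic genes that fell in WT were Pttg1, which encodes securin (19.6 ± 1.67 FPKM on day 0 and 11.6 ± 1.62 on day 7, SD, n = 3, edgeR adjusted p 0.0203), and Fam83d (5.40 ± 0.586 and 2.40 ± 0.399, adjusted p 0.0289), both named after their values were seen. Between days in Cthrc1-/- edgeR called 0 genes of either list, with 5 and 7 at an unadjusted p under 0.05, against 18.1% of all genes. DESeq2 called 0 and 3, and limma 0 and 1. The lowest p in the S-phase list belonged to Dnmt1 (0.50 ± 0.15, adjusted p 0.117) and in the mitotic list to Hjurp (0.59 ± 0.13, adjusted p 0.0520).

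Among genes that restrain or start the cycle, some fell. Myc, a growth-promoting transcription factor, measured 74.9, 76.1 and 76.6 FPKM in WT and 46.1, 35.02 and 20.98 FPKM in Cthrc1-/- on day 0, and 20.1, 18.4 and 29.7 FPKM in WT and 22.2, 23.8 and 18.6 FPKM in Cthrc1-/- on day 7. Every WT day 0 library was above all others, and Myc fell in WT by 1.93 ± 0.29 on the log2 scale (edgeR adjusted p 0.00605) and was lower in Cthrc1-/- on day 0 (-1.24 ± 0.28, adjusted p 0.0402). Wee1, the kinase that holds CDK1 inactive, had the same pattern, with 16.3, 15.4 and 17.6 FPKM in WT and 7.56, 6.19 and 3.896 FPKM in Cthrc1-/- on day 0, and 3.88, 6.73 and 8.16 FPKM in WT and 6.33, 7.12 and 6.15 FPKM in Cthrc1-/- on day 7. Its log2 values were -1.61 ± 0.28 in WT (adjusted p 0.00821) and -1.57 ± 0.28 on day 0 (adjusted p 0.0234). Of the 9 G1 cyclins, kinases and MYC genes, 1 other passed, Cdk4, which rose in WT by 0.94 ± 0.20 (adjusted p 0.0178).

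Of 16 tested genes of the RB, E2F and DREAM group, 4 rose in WT (E2f2, E2f3, E2f8 and Rbl1) and 2 fell (Wee1 and Rbl2), and on day 0 E2f3 was higher in Cthrc1-/- and Wee1 lower. E2f3, an activating E2F, measured 1.27, 1.37 and 1.13 FPKM in WT and 1.97, 4.15 and 5.75 FPKM in Cthrc1-/- on day 0, and 3.72, 5.13 and 5.01 FPKM in WT and 4.68, 3.77 and 3.92 FPKM in Cthrc1-/- on day 7 (WT rise 1.68 ± 0.29, edgeR adjusted p 0.00819). E2f8, a repressor E2F, rose in WT by 2.04 ± 0.43 (adjusted p 0.0170). Of 6 tested CDK inhibitors edgeR, DESeq2 and limma called 0 in WT between days, with 0 at an unadjusted p under 0.05, and 1 passed in Cthrc1-/- between days. This was Cdkn1c, which encodes p57, at 4.603, 4.44 and 5.55 FPKM on day 0 and 26.5, 26.9 and 20.8 FPKM on day 7 (2.20 ± 0.39, edgeR adjusted p 0.0338), against 9.201, 7.81 and 8.37 FPKM and 4.05, 18.1 and 11.8 FPKM in WT. Its interaction with genotype had an adjusted p of 0.194. Cdkn1a, which encodes p21, ranged from 57.5 to 139 FPKM over the 12 libraries, with its highest value in WT day 7 replicate 1.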

How the data were processed

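RNA of mouse dermis was sequenced in 12 samples, 3 in each of 4 groups. Libraries of poly(A) RNA were paired-end, marked for strand and carried molecular identifiers, per the labels' protocols. The deposited table holds read counts and FPKM values per gene, made by the authors on GRCm38. Per the submitters' processing notes, cutadapt 1.9, HISAT2 2.0.4, UMI-tools, StringTie 1.3.4d, DESeq2 and edgeR were among the tools. A count of 0 was deposited with an FPKM of 0.0001, read here as 0. Counts of 4 were 3.16 to 4.05 times as frequent as their neighbours in each library, so counts divided by 4 were one alternative. GENCODE M21 named 55141 of 55401 genes.

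Counts of all 12 samples were fitted in 1 model with edgeR 4.0.16 in R 4.3.3 (TMM scaling, after leaving out genes whose mean FPKM was under 1) and tested in 5 comparisons, with Benjamini-Hochberg adjustment over 14313 genes. DESeq2 1.42.0, limma 3.58.1 on log2(FPKM + 1) or log2(FPKM + 0.1), other scalings and filters, and fits without each library were alternatives. The code was tested on simulated data. The 40 genes and all lists were chosen with earlier results of these data known. Values in every library are given for the 2 most abundant genes of each of 6 role groups and the 3 largest called changes of each comparison. In other lists the 2 largest called changes, or the 2 smallest p, determined the names. Replicates are labelled as biological, but nothing says whether they came from separate animals, so p-values measure the spread between these samples. Promoter sequences are from RefSeq (GRCm38.p6).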

Additional observations from a re-analysis of the deposited data

How the results depend on the processing

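For the 40 genes, the median log2 difference on day 0, the median change in WT and the median interaction kept their sign under every alternative run. Day 0 calls (26) were 35 with DESeq2, and 18 and 21 with limma on log2(FPKM + 1) and log2(FPKM + 0.1). With a minimum mean FPKM of 0.1 and 5 they were 20 and 20. They were 0 with only the day 0 groups fitted, and 0 to 30 with 1 library left out. All calls among tested genes on day 0 (827) were 2787 with DESeq2, 423 and 508 with a minimum mean FPKM of 0.1 and 5, 19 with only the day 0 groups, and 18 to 2146 with 1 library left out. On day 7 (3) they were 62 with DESeq2, 8 and 5 with limma on log2(FPKM + 1) and log2(FPKM + 0.1), and 0 to 4 with 1 library left out. In WT between days (1880) they were 3551 with DESeq2 and 527 to 3005 with 1 library left out. The WT median of the 40 genes (1.42) was 1.625 with library size scaling, which moved the median of all genes to 0.196 in WT and 0.158 in Cthrc1-/-, and 1.308 to 1.636 with 1 library left out. With that scaling the day 7 median was -0.0017, and with limma it was 0.0060 and 0.0094. In Cthrc1-/- between days, calls among the 40 (0) were 2 with DESeq2, 1 and 1 with limma, and 0 to 5 with 1 library left out. All calls there (209) were 1409 with DESeq2, 747 with library size scaling, 775 and 773 with limma, 89 with only those groups, and 5 to 911 with 1 library left out. Interaction calls among the 40 (0) were 24 with DESeq2 and 0 to 5 with 1 library left out. Over all genes (2) they were 681 with DESeq2, 1 with library size scaling, 1 and 0 with a minimum mean FPKM of 0.1 and 5, 4 and 1 with limma, and 0 to 242 with 1 library left out. The causes were not tested.

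Leaving out both Cthrc1-/- day 0 replicate 3 and WT day 7 replicate 1, a setting chosen after seeing the data, gave 24 calls among the 40 on day 0 (22 shared with the 26), 35 in WT, 7 in Cthrc1-/- between days and 0 for the interaction. Over all genes it gave 5 on day 7, 1651 in Cthrc1-/- between days and 9 for the interaction. Samples of the same replicate number mostly did not deviate together (correlations -0.232 to 0.426, over 0.1 in 2 of 12 pairs). Differently numbered samples reached 0.520 (Cthrc1-/- day 0 replicate 1 with day 7 replicate 2). With 3 samples per group that differ widely, this check cannot decide whether the numbers pair samples, which the labels do not say. With the replicate block, 21 of the 40 were called on day 0, 31 in WT and 0 elsewhere, and the interaction over all genes had 1 call. With the minimum mean FPKM of 5, 27 of the 40 genes were fitted.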
